A study of Mus musculus with 10 samples.

Results

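The genes that build the contractile apparatus of smooth muscle were examined in the lungs of mice with ovalbumin-induced asthma. They are Acta2, Actg2, Myh11, Myl9, Tagln, Cnn1, Smtn, Lmod1, Synpo2 and Des, which were chosen by name, and all 10 were found among the 24394 gene symbols of the deposited table. RNA-seq of lung tissue gave 10 libraries from female BALB/c mice, bought at an age of 8 weeks, in 3 groups. The control group, Saline (n = 3), received saline in place of ovalbumin. OVA mice (n = 3) were sensitized by 2 injections of ovalbumin, an egg protein that provokes allergic airway inflammation, and were then challenged with it through the airways on 4 days. Herb mice (n = 4) went through the same ovalbumin protocol and received an ethanol extract of Descurainia sophia seeds by mouth at 200 mg per kg for 7 days. No group is labelled with a genetic change, and the lung tissue was not dissected further, so airway and vessel muscle were measured together.

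Smooth muscle shortens when calcium activates myosin light chain kinase, the phosphorylated light chain switches on smooth muscle myosin, and the myosin pulls on actin filaments that are anchored at dense bodies. Most genes of this apparatus are switched on by serum response factor with its partner myocardin, which bind a DNA element called the CArG box. In the lung the muscle encircles the airways and the larger vessels, and a thicker and more reactive airway muscle layer is a known feature of asthma.

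In the OVA lungs, the FPKM of most genes was lower than in the Saline lungs, whereas the contractile genes other than Myl9 did not pass the test for a fall. FPKM is the number of fragments per kilobase of transcript, scaled to a fixed number of mapped fragments. Log2 fold changes of log2(FPKM + 1) are given ± SE. Myl9, the regulatory light chain of smooth muscle myosin, fell to 0.383 times its Saline level on the FPKM + 1 scale, and it was the only 1 of the 10 genes that changed. When each library was rescaled so that its 75th percentile was the same, 6 of the 10 genes were higher in OVA than in Saline, led by Myh11, Acta2 and Actg2, on a scale on which 23.8% of all genes were higher and 17.3% lower. In the Herb lungs Myl9, Tagln and Lmod1 were higher than in the OVA lungs on the deposited scale, as were 44.0% of all genes, and none of the 10 was after rescaling.

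The libraries differed in composition before any single gene was considered. Named protein-coding rows of known length took an estimated 33.2% of the fragments in Saline, 13.4% in OVA and 22.8% in Herb. The SDs were 0.207, 1.49 and 2.83 over 3, 3 and 4 libraries, and rows without a symbol were not counted in this share. The ribosomal RNA precursor Rn45s averaged 1307, 11250 and 5465 FPKM. Both measures separated the groups without overlap (exact permutation test, two-sided: p = 0.0571 for both comparisons with Herb and 0.1 between OVA and Saline, the smallest that these group sizes allow). The 75th percentile of the named transcripts with a mean of at least 1 FPKM was 8.07 FPKM in Saline, 3.63 in OVA and 5.82 in Herb. The part of this shift in the differences below was not tested, and the main results are therefore given on the deposited scale and after the rescaling. In bulk tissue, fewer muscle cells and less RNA per muscle cell cannot be told apart. The estimated depth was 14750000 to 29400000 fragments, at which the members were covered by 36 to 1881 estimated fragments in every library, other than Des in OVA replicate 3 with 5 and Smtn in Saline replicates 2 and 3 and Herb replicate 3 with 2, 15 and 19. The tissue label was checked with Sftpc and Scgb1a1, secreted by alveolar and club cells, which were listed at 210 or more and 2471 or more FPKM in every library. The housekeeping gene Gapdh was listed at 0 in 9 libraries, so that an exact 0 in this table can be a failed estimate.

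**Figure D1:**
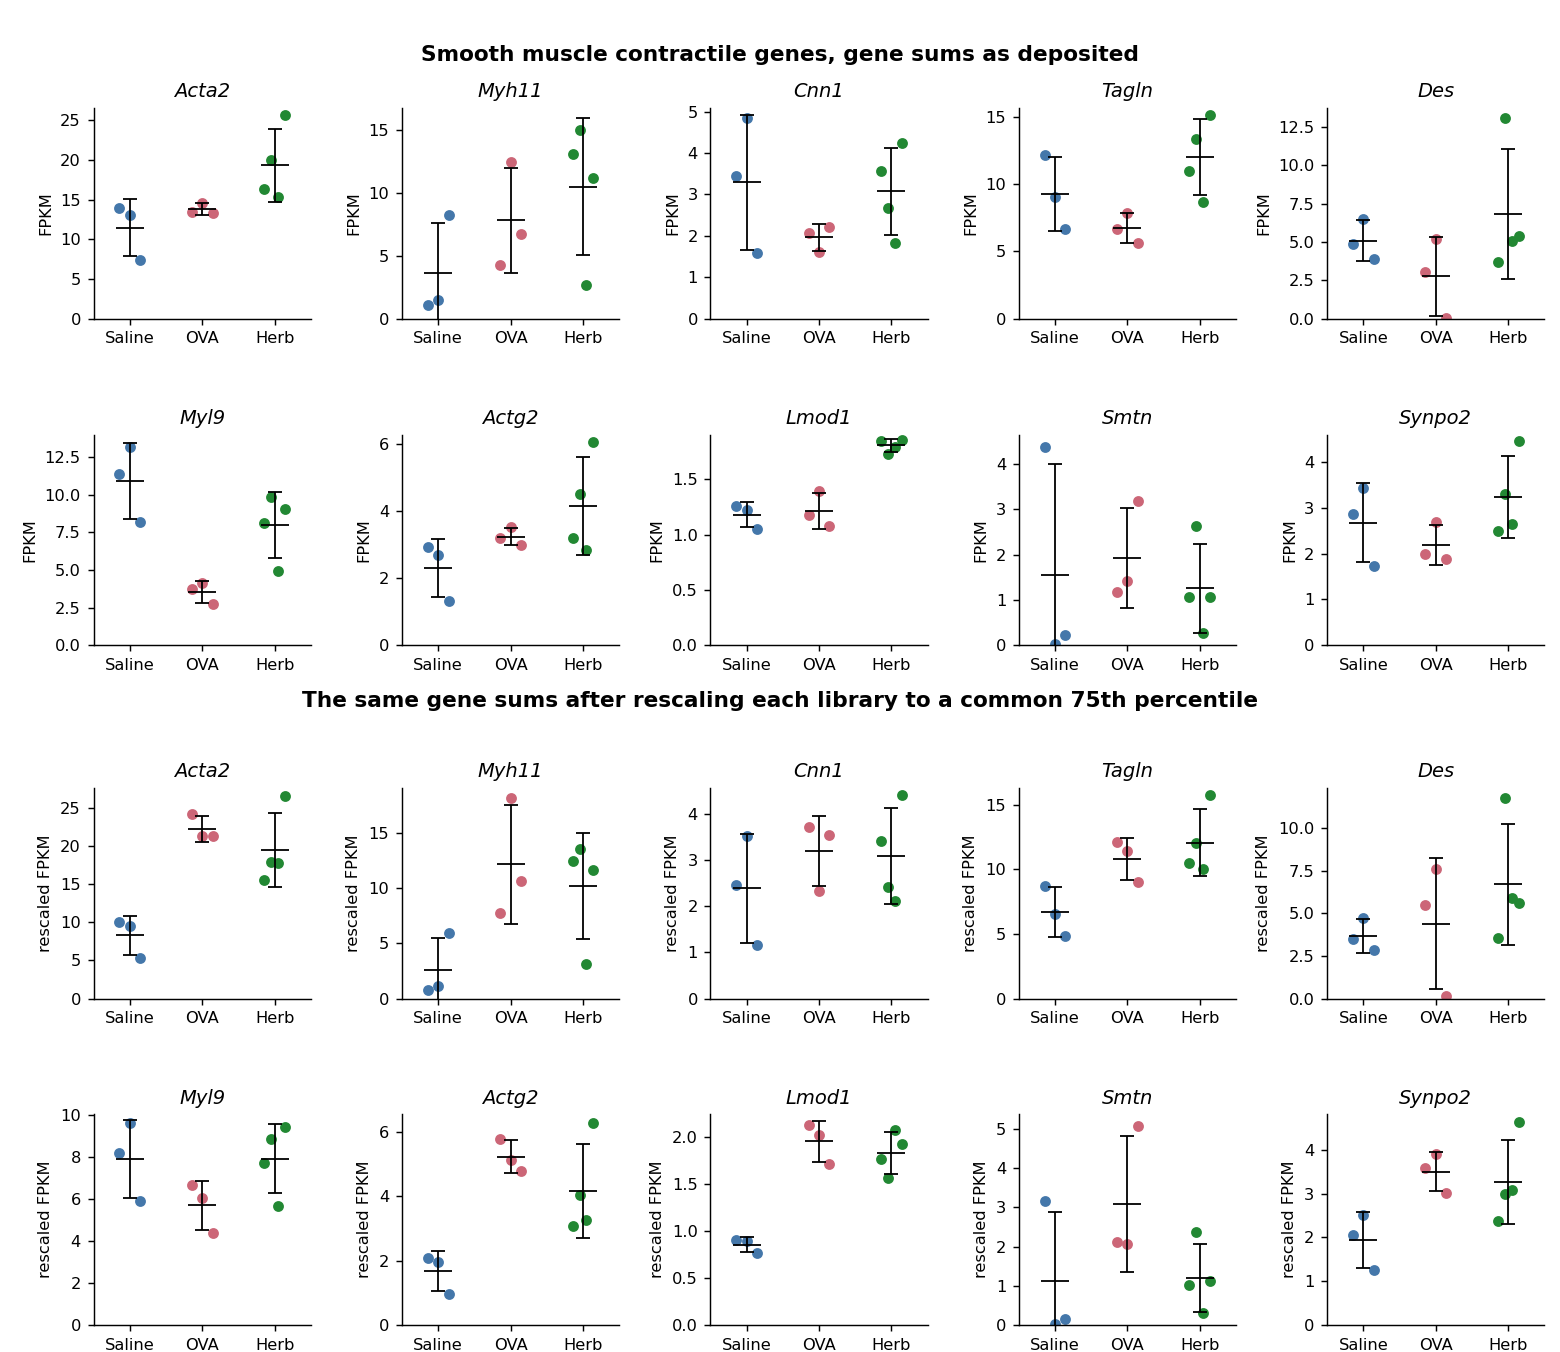
FPKM of the 10 contractile genes, summed over the transcript rows of each gene, as deposited in the top 2 rows of panels and after rescaling to a common 75th percentile in the bottom 2 rows. Points are libraries (Saline n = 3, OVA n = 3, Herb n = 4), bars are the mean ± SD and are cut at 0. Myl9 lies lower in the 3 OVA libraries than in every other library on the deposited scale, and Acta2 lies higher in the 3 OVA libraries than in the Saline libraries after rescaling.

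Acta2 and Actg2 encode the smooth muscle actins that form the thin filaments, Acta2 in vessels and airways and Actg2 mainly in visceral muscle. The FPKM of Acta2 (chromosome 19, 34240336 to 34255585 in mm10) in the libraries were 13.95, 13.1 and 7.36 for Saline, 13.45, 14.6 and 13.4 for OVA, and 16.35, 19.9, 15.4 and 25.6 for Herb. The OVA values fell around the upper Saline values, and all 4 Herb libraries were above all others. The share of all genes with this order of Herb was not counted. The log2 fold change was 0.43 ± 0.24 in Herb vs. OVA (adjusted p = 0.166, limma) and 0.72 ± 0.24 in Herb vs. Saline (adjusted p = 0.0512). Neither passed the test. Between OVA and Saline the log2 fold change was 0.29 ± 0.25 (adjusted p = 0.339, limma), with a 95% interval from -0.28 to 0.87. After rescaling, Acta2 was at 10, 9.56 and 5.34 in Saline, 24.3, 21.3 and 21.3 in OVA and 15.6, 17.96, 17.7 and 26.6 in Herb, so that neither OVA nor Herb overlapped with Saline. Every OVA library lay above every Saline library in 30.9% of all genes after rescaling, and the share for Herb was not counted. On that scale Acta2 was higher in OVA by 1.37 ± 0.24 on the log2 scale (adjusted p = 0.00318) and higher in Herb than in Saline by 1.15 ± 0.23 (adjusted p = 0.0180). The first call held with each of the 10 libraries left out, and the second was lost without Saline replicate 2 (adjusted p = 0.0583). In Herb vs. OVA the rescaled log2 fold change of Acta2 was -0.21 ± 0.23 (adjusted p = 0.584, limma).

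Actg2 (chromosome 6, 83512909 to 83536251) was lower per length than Acta2 in every library, with 2.92, 2.69 and 1.32 FPKM in Saline, 3.20, 3.51 and 2.996 in OVA and 3.21, 4.50, 2.83 and 6.04 in Herb. It was the only 1 of the 10 genes for which every OVA library lay above every Saline library on the deposited scale, an order found in 4.68% of all 11205 genes tested, and its log2 fold change of 0.39 ± 0.26 did not pass the test (adjusted p = 0.22, limma). Rescaled, Actg2 was higher in OVA than in Saline by 1.25 ± 0.25 (adjusted p = 0.00454) and higher in Herb than in Saline by 0.94 ± 0.23 (adjusted p = 0.0308). The first of these calls held with each library left out, and the second was lost without any 1 of the 3 Saline libraries or Herb replicate 3 or 4 (adjusted p from 0.0545 to 0.0863). The ratio of Actg2 to Acta2 within a library, from which a single factor per library cancels, averaged 0.198 in Saline, 0.234 in OVA and 0.210 in Herb, with SDs of 0.0162, 0.00866 and 0.0244 (n = 3, 3 and 4). The OVA ratios lay above the Saline ratios, and Herb overlapped with both (exact permutation test between OVA and Saline, p = 0.1). How many of all genes had this order of ratios to Acta2 was not counted.

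The coding sequences of the muscle actins are close relatives, and a read that fits more than 1 of them could be split between genes. The longest stretch that the coding sequences of Acta2 and Actg2 share without a mismatch has 29 bases, at bases 637 to 665 of the coding sequence of Acta2, and is shown in full because it is shorter than a read of 76 bases.

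Acta2 and Actg2, shared stretch: gacatcaaggagaagctgtgctatgtagc

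No run of 76 bases from the 13 reference transcripts matched to the members was found in a transcript of another gene. Read pairs with mismatches were not considered.

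RefSeq promoters (GRCm38.p6, the assembly of mm10) were given for 7 of the 10 members, and Tagln, Actg2 and Myh11 had no entry. The 250 bases before the start were searched for the CArG box, a core of A and T between C and G pairs that reads the same on both strands. The exact box was found in 1 of the 7, Myl9, and in 1.47% of 32851 promoters. With up to 1 departure in its A and T core it was found in 2 of the 7, Acta2 and Myl9, and in 8.59% of all promoters. Both promoters are shown because Acta2 and Myl9 hold these boxes and changed differently between the groups, with the boxes in capitals and the sequence ending at the base before the RefSeq start, which lies inside the span of the deposited row.

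Acta2, chr19:34255374-34255623, minus strand: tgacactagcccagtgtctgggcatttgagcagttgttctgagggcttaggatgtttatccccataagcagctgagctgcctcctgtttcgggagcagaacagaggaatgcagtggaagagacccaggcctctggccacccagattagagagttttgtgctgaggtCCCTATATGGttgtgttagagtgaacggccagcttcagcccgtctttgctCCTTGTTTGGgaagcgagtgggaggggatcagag
Myl9, chr2:156775214-156775463, plus strand: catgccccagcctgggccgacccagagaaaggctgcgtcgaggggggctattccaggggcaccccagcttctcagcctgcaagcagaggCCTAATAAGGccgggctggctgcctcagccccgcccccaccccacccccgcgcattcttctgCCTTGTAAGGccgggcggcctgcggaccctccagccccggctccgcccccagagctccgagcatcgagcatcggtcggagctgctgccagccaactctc

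The boxes of Acta2 end 75 and 25 bases before the start and each has 1 departure. Those of Myl9 end 152 bases before the start for the exact box and 90 bases before it for the box with 1 departure. A match is a description of the sequence and not a site of binding.

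Myh11 encodes the smooth muscle myosin heavy chain, the motor of the thick filament and the gene most specific to this cell type. Its 2 rows (chromosome 16, 14194527 to 14292188) summed to 1.11, 1.52 and 8.20 FPKM in Saline, 4.27, 12.45 and 6.69 in OVA, and 13.1, 15.0, 2.68 and 11.2 in Herb. Saline replicate 3 lay within the OVA values and Herb replicate 3 lay below them. The log2 fold change in OVA vs. Saline was 1.16 ± 0.69 (adjusted p = 0.176, limma). After rescaling it was 2.07 ± 0.63 (adjusted p = 0.0277), a call that was lost without Saline replicate 1 or 2 or OVA replicate 2 or 3 (adjusted p from 0.0566 to 0.09125). Without Saline replicate 3, Myh11 was called higher in OVA on the deposited scale too, by 1.82 ± 0.63 (adjusted p = 0.0388).

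The spread of Myh11 came with a shift between its transcript rows. NM_013607 was listed at 0 in Saline replicate 1 and in OVA replicate 2, where NM_001161775 held all of the signal with 1.11 and 12.45 FPKM. In the 8 other libraries both rows were listed, NM_013607 at up to 6.80 FPKM. Neither row passed the test in any comparison on the deposited scale. Smtn, which encodes smoothelin of contractile smooth muscle, (chromosome 11, 3517522 to 3539292) showed the same kind of jump over 5 rows. It summed to 4.39, 0.0271 and 0.217 FPKM in Saline, 1.17, 1.41 and 3.19 in OVA, and 1.06, 2.63, 0.26 and 1.08 in Herb. One Saline library therefore held the highest value of all 10 and another the lowest. NM_001284427 was listed at 0 in all 3 Saline libraries and at 0.895 to 1.85 FPKM in the 3 OVA libraries, while NM_013870 reached 4.36 FPKM in Saline replicate 1. None of the 5 rows had a mean of 1 FPKM, so Smtn was tested as a gene sum only, with a log2 fold change in OVA vs. Saline of 0.57 ± 0.62 (adjusted p = 0.451, limma). Without Saline replicate 1 it was 1.33 ± 0.44 and passed the test (adjusted p = 0.0314).

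**Figure D2:**
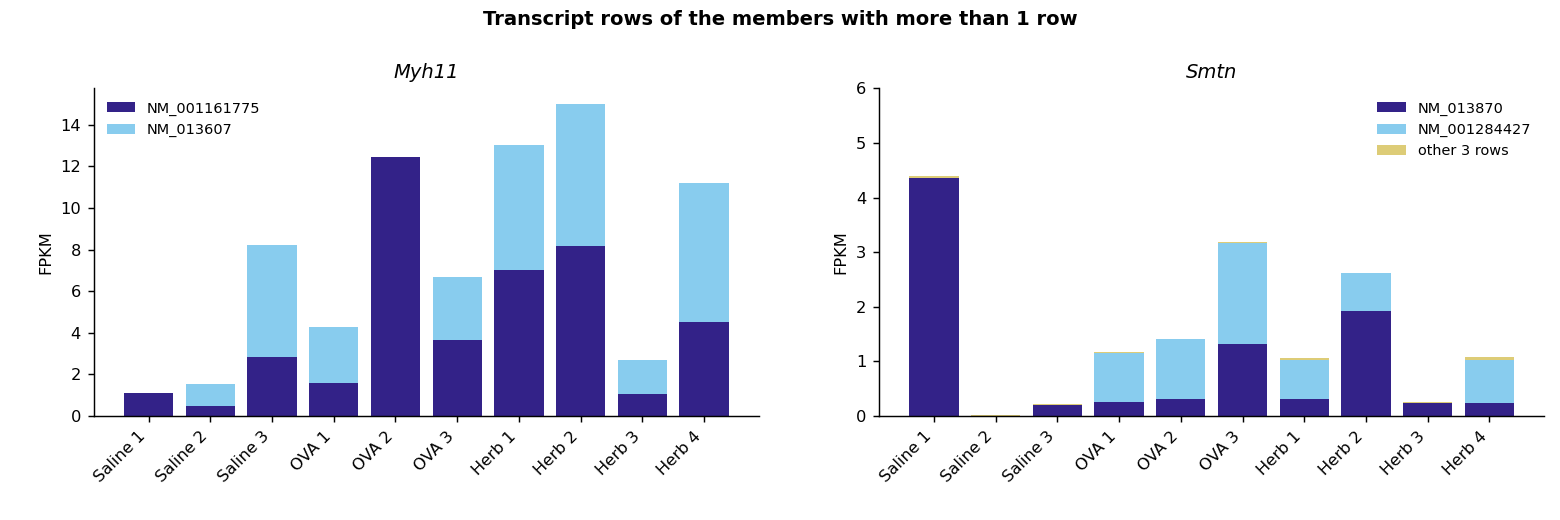
FPKM of the transcript rows of Myh11 and Smtn in each of the 10 libraries, as stacked bars. The 2 Myh11 rows share the signal in 8 libraries and a single row holds it in Saline replicate 1 and OVA replicate 2, and most of Smtn in Saline replicates 1 and 3 comes from NM_013870, which is listed at 0 in Saline replicate 2.

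Myl9, whose phosphorylation starts contraction, was the member that set the OVA group apart on the deposited scale. It lies on chromosome 2 (156775408 to 156781657) and had 11.4, 13.2 and 8.16 FPKM in the Saline libraries, 3.70, 4.14 and 2.75 in OVA, and 8.08, 9.86, 4.93 and 9.07 in Herb. Every OVA library was below every Saline and every Herb library, and the Herb values overlapped with Saline. How many of all genes had this order was not counted. Myl9 fell in OVA vs. Saline by 1.38 ± 0.26 on the log2 scale (adjusted p = 0.00132, limma), and it rose again in Herb vs. OVA by 0.96 ± 0.24 (adjusted p = 0.0127). Both calls held with each library left out. The first made 1 lower and 0 higher of the 10 members, where 57.9% of all 11205 genes were lower and 3.28% were higher. Among the 9036 genes with a mean FPKM between the lowest and the highest member, 1.44 to 15.3, the share of lower genes was 59.5%. A limma test at an unadjusted p under 0.05 also found 1 of the 10 members.

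After rescaling, Myl9 was at 8.17, 9.62 and 5.92 in Saline, 6.67, 6.03 and 4.38 in OVA and 7.72, 8.88, 5.69 and 9.42 in Herb. Of the 3 OVA values 2 were then within the Saline range, and the log2 fold change was -0.40 ± 0.22 (adjusted p = 0.173, limma), with a 95% interval from -0.91 to 0.099. In Herb vs. OVA it was 0.41 ± 0.21 (adjusted p = 0.241). The level of Myl9 relative to Acta2 does not depend on a scaling by a single factor per library. The Myl9 to Acta2 ratio was 0.817, 1.006 and 1.11 in Saline, 0.275, 0.283 and 0.206 in OVA, and 0.494, 0.494, 0.321 and 0.354 in Herb. The 3 groups did not overlap, with Herb between OVA and Saline, and the means were 0.977, 0.254 and 0.416 for Saline, OVA and Herb, with SDs of 0.148, 0.0424 and 0.0916 (n = 3, 3 and 4). The exact permutation test (two-sided) gave p = 0.0571 for each comparison with Herb and 0.1 between OVA and Saline, the smallest possible values, and 0.27 after Benjamini-Hochberg adjustment over the 27 ratio tests. How many of all genes had such an order of ratios to Acta2 was not counted. In OVA vs. Saline the log2 fold change of Acta2 was 0.29 as deposited and 1.37 rescaled. The medians of all genes were -0.75 and 0.071. A lower ratio to Acta2 in OVA can therefore not be read as particular to Myl9.

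Tagln encodes transgelin, an actin-binding protein and an early marker of smooth muscle. Its FPKM were 12.1, 9.01 and 6.68 in Saline, 6.69, 7.82 and 5.65 in OVA, and 10.9, 13.4, 8.67 and 15.2 in Herb (chromosome 9, 45929628 to 45936058). Every Herb library was above every OVA library, and OVA overlapped with Saline. Of all genes, 44.0% were called higher in Herb than in OVA, and the share with this order was not counted. The log2 fold change of Tagln was 0.74 ± 0.23 in Herb vs. OVA (adjusted p = 0.0287, limma), a call that was lost without OVA replicate 1 or 3 or Herb replicate 1, 2 or 4 (adjusted p from 0.0515 to 0.0870), and -0.39 ± 0.25 in OVA vs. Saline (adjusted p = 0.198). Rescaled, Tagln changed sign in OVA vs. Saline and was higher by 0.64 ± 0.22 (adjusted p = 0.0453), a call that was lost when any 1 of 7 libraries was left out, among them OVA replicates 1 and 2 and Saline replicates 2 and 3 (adjusted p from 0.0526 to 0.144), and it was 0.13 ± 0.21 in Herb vs. OVA (adjusted p = 0.718). Relative to Acta2, Tagln stood at a mean of 0.822 in Saline, 0.485 in OVA and 0.623 in Herb, with SDs of 0.118, 0.0572 and 0.0538 (n = 3, 3 and 4). The 3 groups again did not overlap, with the same p-values as for Myl9. The share of all genes with this order relative to Acta2 was not counted here either, so it cannot be read as particular to Tagln.

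**Figure D3:**
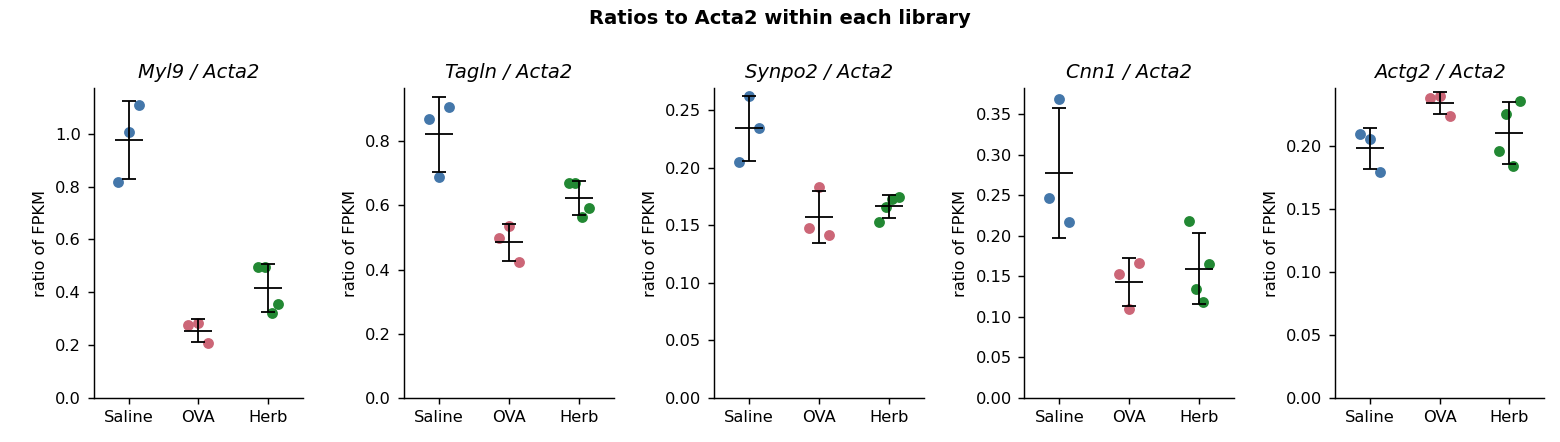
Ratio of the FPKM of 5 contractile genes to that of Acta2 in the same library, by group. Points are libraries and bars are the mean ± SD. The ratios of Myl9 and Tagln are highest in Saline, lowest in OVA and between them in Herb, with no overlap between groups. How many of all genes have this order of ratios to Acta2 was not counted.

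Cnn1 (chromosome 9, 22099221 to 22109221) encodes calponin, which restrains the myosin motor on actin, and Synpo2 (chromosome 3, 123076519 to 123236168) encodes an actin-bundling protein of the dense bodies. Cnn1 ranged from 1.598 to 4.84 FPKM in Saline, 1.6 to 2.23 in OVA and 1.82 to 4.24 in Herb. Synpo2 ranged from 1.73 to 3.44 FPKM in Saline, 1.89 to 2.68 in OVA and 2.496 to 4.47 in Herb. The groups of both genes overlapped on the deposited scale, where neither changed in any comparison. Cnn1 was called lower in OVA, by 0.79 ± 0.27 on the log2 scale (adjusted p = 0.0342), when Saline replicate 3 was left out and with no other library left out. After rescaling Synpo2 was higher in OVA than in Saline by 0.63 ± 0.22 (adjusted p = 0.0422), a call that was lost when any 1 of 7 libraries was left out, among them each OVA library (adjusted p from 0.0526 to 0.135). Relative to Acta2, the mean for Synpo2 was 0.234 ± 0.0285 (SD, n = 3) in Saline and 0.157 ± 0.0225 in OVA, and for Cnn1 it was 0.278 ± 0.0804 and 0.143 ± 0.0299, with no overlap between these groups for either gene (exact permutation test, p = 0.1). How many of all genes had a lower ratio to Acta2 in every OVA library was not counted.

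Lmod1 (chromosome 1, 135324813 to 135368065) encodes leiomodin, which starts the assembly of actin filaments in smooth muscle. It was among the last 2 members per length in each group, at 1.26, 1.23 and 1.06 FPKM in Saline, 1.18, 1.39 and 1.075 in OVA, and 1.85, 1.73, 1.795 and 1.85 in Herb. All 4 Herb libraries were above all others, while OVA overlapped with Saline. The share of all genes with such an order was not counted. Lmod1 was higher in Herb than in OVA by 0.34 ± 0.10 on the log2 scale (adjusted p = 0.0248, limma) and higher in Herb than in Saline by 0.37 ± 0.10 (adjusted p = 0.0318). The first call was lost without OVA replicate 1 or 3 or Herb replicate 1 or 4 (adjusted p from 0.0505 to 0.07095). The second was lost without any 1 of the Saline libraries or Herb replicate 1, 3 or 4 (adjusted p from 0.0662 to 0.102). Because 1 FPKM was added before the logarithm, the fold change of so low a gene is understated. Rescaled, Lmod1 was at 0.904, 0.894 and 0.765 in Saline, 2.13, 2.03 and 1.71 in OVA and 1.77, 1.56, 2.07 and 1.92 in Herb. Saline was then apart from both other groups, by 0.67 ± 0.12 (adjusted p = 0.00270) for OVA and 0.61 ± 0.11 (adjusted p = 0.0141) for Herb. The first held with each library left out and the second was lost without Saline replicate 2 (adjusted p = 0.0583).

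Des (chromosome 1, 75360292 to 75368579) encodes desmin, an intermediate filament protein that smooth muscle shares with skeletal and cardiac muscle. Its FPKM was 4.84, 6.51 and 3.89 in Saline, 3.04, 5.20 and 0.0778 in OVA, and 3.72, 13.1, 5.10 and 5.37 in Herb. OVA replicate 3 and Herb replicate 2 stood far from the rest of their groups. In Herb replicate 2 the skeletal muscle list summed to 172.9 FPKM, with Acta1 at 65.6 and Ckm at 26.4, against at most 3.04 in the Saline and 0.646 in the OVA libraries, where the fast myosins Myh2 and Myh4 were listed at 0 throughout. The cardiac muscle list summed to 9.26 to 69.2 FPKM in Saline, 8.29 to 11.7 in OVA and 8.18 to 26.3 in Herb, the highest in Saline replicate 2, where the atrial light chain Myl7 was at 22.7 FPKM. The part of these other muscle transcripts in the Des values was not tested. Without Herb replicate 2, the log2 fold change of Des in Herb vs. Saline went from 0.25 to -0.075, and with all libraries Des did not change in any comparison (OVA vs. Saline -0.997 ± 0.613, adjusted p = 0.187, limma). Without OVA replicate 2, Des was called higher in Herb than in OVA, by 1.77 ± 0.57 (adjusted p = 0.0380).

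Counted over all 10 members, Herb vs. OVA gave 3 higher and 0 lower as deposited, where 44.0% of all genes tested were higher. The median log2 fold change of the members was 0.41 and that of all genes 0.48. Herb vs. Saline gave 1 higher, Lmod1, and 0 lower, where 3.32% of all genes were higher and 22.7% were lower, with medians of 0.30 for the members and -0.27 for all genes. In OVA vs. Saline the medians were -0.082 for the members and -0.75 for all genes. As single transcript rows, of which 10 of the 15 passed the filter on low values, Myl9 was lower in OVA vs. Saline, as were 41.1% of all 30194 rows tested. In Herb vs. OVA 2 member rows, those of Myl9 and Tagln, were higher, as were 31.7% of all rows. That count was 0 without OVA replicate 1 or 3 or Herb replicate 1 or 2, so the row of Myl9, unlike its call among the gene sums, did not hold with each library left out. In Herb vs. Saline 0 member rows changed by limma, 3 had an unadjusted p under 0.05, and 8.09% of all rows changed in either direction.

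The rescaling brought the medians of all genes to 0.071, 0.019 and 0.093 in OVA vs. Saline, Herb vs. OVA and Herb vs. Saline. OVA vs. Saline then gave 6 of the 10 members higher and 0 lower, where 23.8% of all genes were higher and 17.3% were lower, and 25.0% of the genes in the members' range of mean FPKM were higher. Between 3 and 6 members were called with each library left out, and Acta2, Actg2 and Lmod1 were among them every time. In 6 members, Acta2, Actg2, Myh11, Tagln, Lmod1 and Synpo2, every OVA library lay above every Saline library, an order found in 30.9% of all genes. Herb vs. OVA gave 0 members in either direction by limma, 0 at an unadjusted p under 0.05, and 0.812% of all genes. Herb vs. Saline gave 4 higher and 0 lower, Acta2, Actg2, Lmod1 and Tagln, where 10.8% of all genes and 11.5% of the genes in the members' range were higher. Without Saline replicate 2 the count of members was 0, and that of all genes called in either direction went from 1774 to 120. The limma p-values weigh each difference between groups against the spread of libraries within groups. That spread was pooled over the 3 groups and drawn toward that of other genes.

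**Figure D4:**
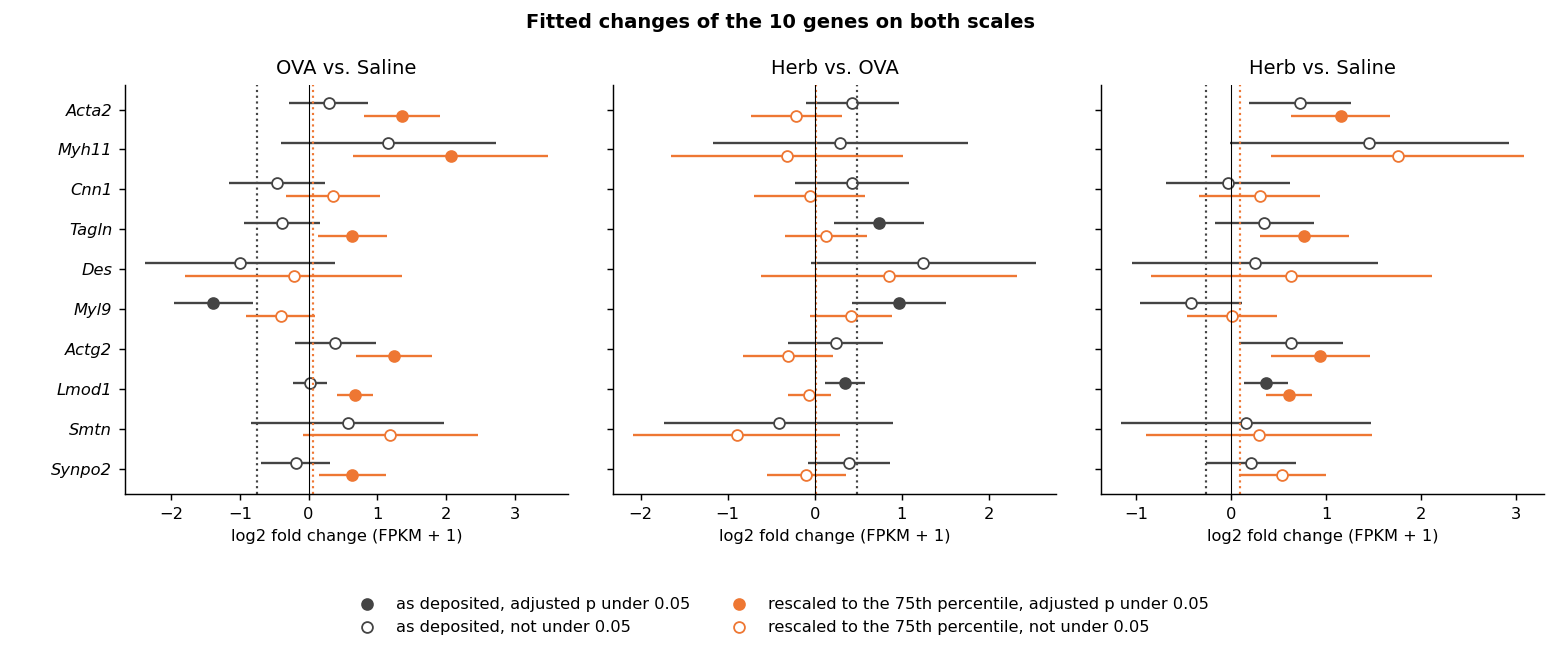
Log2 fold change of log2(FPKM + 1) for the 10 contractile genes in 3 comparisons, with 95% intervals, as deposited (grey) and after rescaling to the 75th percentile (orange). Filled points have an adjusted p under 0.05 and dotted lines mark the median of all 11205 genes on each scale. In OVA vs. Saline, 8 of the 10 genes lie above the median of all genes on both scales.

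On the deposited scale, Saline replicate 3 had the lowest value of its group for 8 of the 10 members, OVA replicate 3 for 7 and Herb replicate 3 for 7, while OVA replicate 2 had the highest for 8 and Herb replicate 4 for 6. After rescaling, Saline replicate 3 was still the lowest for 8, OVA replicate 3 for 7 and Herb replicate 3 for 5, and Herb replicate 4 was the highest for 6, but in OVA the highest was replicate 1 for 6 members and replicate 2 for 3. Summed over the members, FPKM averaged 51.4 in Saline, 45.2 in OVA and 70.1 in Herb, with SDs of 9.74, 8.39 and 18.8 (n = 3, 3 and 4). As a share of the FPKM of all named protein-coding rows, the sum averaged 0.0369%, 0.0948% and 0.0796%, with SDs of 0.00716, 0.0156 and 0.0159. The Saline libraries lay at 0.0295 to 0.0437%, below all OVA libraries at 0.0768 to 0.104% and all Herb libraries at 0.0622 to 0.0977%. The FPKM of the named protein-coding rows averaged 139100 in Saline, 48040 in OVA and 87330 in Herb. A gene of steady FPKM therefore has a higher share in OVA and Herb. The member sums as deposited overlapped, at 40.2 to 58.3 in Saline and 39.9 to 54.8 in OVA. How many of all genes had this order of shares was not counted.

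Acta2 led in the mean level per length in each group. In Saline it was followed by Myl9 at 10.9 and Tagln at 9.27 FPKM, and the ranges of these 3 genes overlapped. In OVA the order behind Acta2 at 13.8 FPKM was Myh11 at 7.80, Tagln at 6.72 and Myl9 at 3.53, and the lowest Acta2 value there was above the highest value of the other 9 genes. In Herb it was Tagln at 12.03, Myh11 at 10.5 and Myl9 at 7.99 FPKM behind Acta2 at 19.3, with overlapping ranges from Tagln to Myl9. Lmod1 and Smtn took the last ranks in each group, with overlapping ranges in each.

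Genes whose proteins work with the contractile filaments were compared next in OVA vs. Saline. Of 23 contractile partners, 21 were tested, and 15 were lower and 0 higher as deposited, with a median log2 fold change of -1.40 beside -0.082 for the members and -0.75 for all genes, of which 57.9% were lower. The difference between the partners and the members was not tested. Itga8, an integrin of smooth muscle and fibroblasts, fell by 3.15 ± 0.55 (limma, adjusted p = 0.00101), Fhl1, a LIM domain protein of muscle, by 3.02 ± 0.45 (adjusted p = 0.000415), and Cnn2, the calponin of non-muscle cells, by 2.73 ± 0.42 (adjusted p = 0.000476). The most abundant partners were the non-muscle myosin Myh9 with -1.06 ± 0.27 (adjusted p = 0.00765) and the LIM protein Csrp1 with -1.48 ± 0.38 (adjusted p = 0.00750).

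After rescaling, 6 of the 21 partners were lower and 3 higher, with a median of -0.36, where 17.3% of all genes were lower and 23.8% higher. Itga8 (-2.13 ± 0.51, adjusted p = 0.0106), Fhl1 (-1.98 ± 0.41, adjusted p = 0.00555) and the actin-binding caldesmon gene Cald1 (-1.90 ± 0.39, adjusted p = 0.00567) were still lower. Tpm2, the tropomyosin that lies along muscle thin filaments, was among the 3 that were higher, by 1.53 ± 0.20 (adjusted p = 0.00118), with the filamin gene Flna at 0.94 ± 0.19 (adjusted p = 0.00558) and Smtnl2 at 0.44 ± 0.13 (adjusted p = 0.0233), which was lower as deposited (-0.47 ± 0.17, adjusted p = 0.0347). The FPKM of Tpm2 lay between 3.67 and 6.64 in Saline and between 7.25 and 8.71 in OVA. The light chain kinase gene Mylk was below 0.012 FPKM in 8 libraries, and at 2.31 and 1.37 in Herb replicates 1 and 4, and it did not pass the filter. Whether its values near 0 are failed estimates was not tested, so they cannot be read as absence of the transcript.

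Of 22 genes of contraction signalling, 17 were tested, and 15 were lower and 0 higher in OVA vs. Saline, with a median of -1.42, where 57.9% of all genes were lower. Gucy1b3, a subunit of the nitric oxide receptor that relaxes smooth muscle, fell by 2.35 ± 0.24 (limma, adjusted p = 0.000149), the myosin phosphatase subunit gene Ppp1cb by 2.30 ± 0.23 (adjusted p = 0.000149) and the GTPase gene Rhoa by 2.13 ± 0.25 (adjusted p = 0.000172). Rescaled, 5 were lower, the angiotensin receptor gene Agtr1a (-1.39 ± 0.18, adjusted p = 0.00106), Gucy1b3 (-1.30 ± 0.20, adjusted p = 0.00188), Ppp1cb (-1.20 ± 0.15, adjusted p = 0.00107), Rhoa (-1.01 ± 0.17, adjusted p = 0.00242) and the endothelin receptor gene Ednra (-0.53 ± 0.18, adjusted p = 0.0422), and 1 was higher, where 17.3% of all genes were lower and 23.8% higher. That gene was Ppp1r12a, the targeting subunit of myosin phosphatase, which was listed at 0.0293, 0.254 and 9.79 FPKM in Saline, so its value rests on 2 Saline libraries near 0.

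Of 14 regulators around serum response factor and myocardin, 11 were tested, and 8 were lower and 0 higher in OVA vs. Saline, with a median of -0.75 that equalled that of all genes, of which 57.9% were lower. Klf4, a repressor of contractile genes, was at -1.38 ± 0.42 (limma, adjusted p = 0.0185), the myocardin-related factor gene Mkl2 at -1.27 ± 0.18 (adjusted p = 0.000319) and Tgfb1 at -1.10 ± 0.30 (adjusted p = 0.0104). Foxo4, another repressor, was at -1.01 ± 0.20 (adjusted p = 0.00208). Rescaled, 0 were lower and 2 were higher, where 17.3% of all genes were lower and 23.8% higher. The 2 were the myocardin-related factor gene Mkl1, by 1.05 ± 0.15 (adjusted p = 0.00157), and Srf itself, by 0.84 ± 0.14 (adjusted p = 0.00230). The FPKM of Srf as deposited lay between 2.68 and 3.92 in Saline and between 2.59 and 3.50 in OVA. Myocd, the gene for myocardin, stayed at 0.152 to 0.608 FPKM over all libraries and was not tested.

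In Herb vs. OVA as deposited, 9 of the 21 partners, 9 of the 17 signalling genes and 6 of the 11 regulators were higher and 0 of each were lower, where 44.0% of all genes were higher. Cnn2 was at 1.41 ± 0.39 (limma, adjusted p = 0.0184), Tpm4, a tropomyosin of non-muscle cells, at 1.23 ± 0.22 (adjusted p = 0.00716), and Rhoa at 1.29 ± 0.24 (adjusted p = 0.00716). After rescaling, 0 genes of these 3 lists were called in Herb vs. OVA, with the most abundant signalling gene, Rhoa, at 0.64 ± 0.16 (adjusted p = 0.0728). In Herb vs. Saline, 6 of the 21 partners, 6 of the 17 signalling genes and 3 of the 11 regulators were lower as deposited, where 22.7% of all genes were lower. Rescaled, Cald1 (-1.54 ± 0.37, adjusted p = 0.0290) and Fhl1 (-1.35 ± 0.38, adjusted p = 0.0445) were lower and Tpm2 (1.03 ± 0.19, adjusted p = 0.0154) was higher in Herb than in Saline, as were Smtnl2 (0.41 ± 0.12, adjusted p = 0.0473), Mkl1 (0.57 ± 0.14, adjusted p = 0.0332) and Srf (0.51 ± 0.13, adjusted p = 0.0339). The signalling genes Agtr1a (-0.86 ± 0.17, adjusted p = 0.0170), Gucy1b3 (-0.835 ± 0.190, adjusted p = 0.0258) and Ppp1cb (-0.62 ± 0.14, adjusted p = 0.0269) were lower on that scale. Rescaled, 2 of the 21 partners were higher and 2 lower, 0 and 3 of the 17 signalling genes, and 2 and 0 of the 11 regulators. Of all 11205 genes, 10.8% were higher and 1774 were called in either direction, a count that was 120 without Saline replicate 2.

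**Figure D5:**
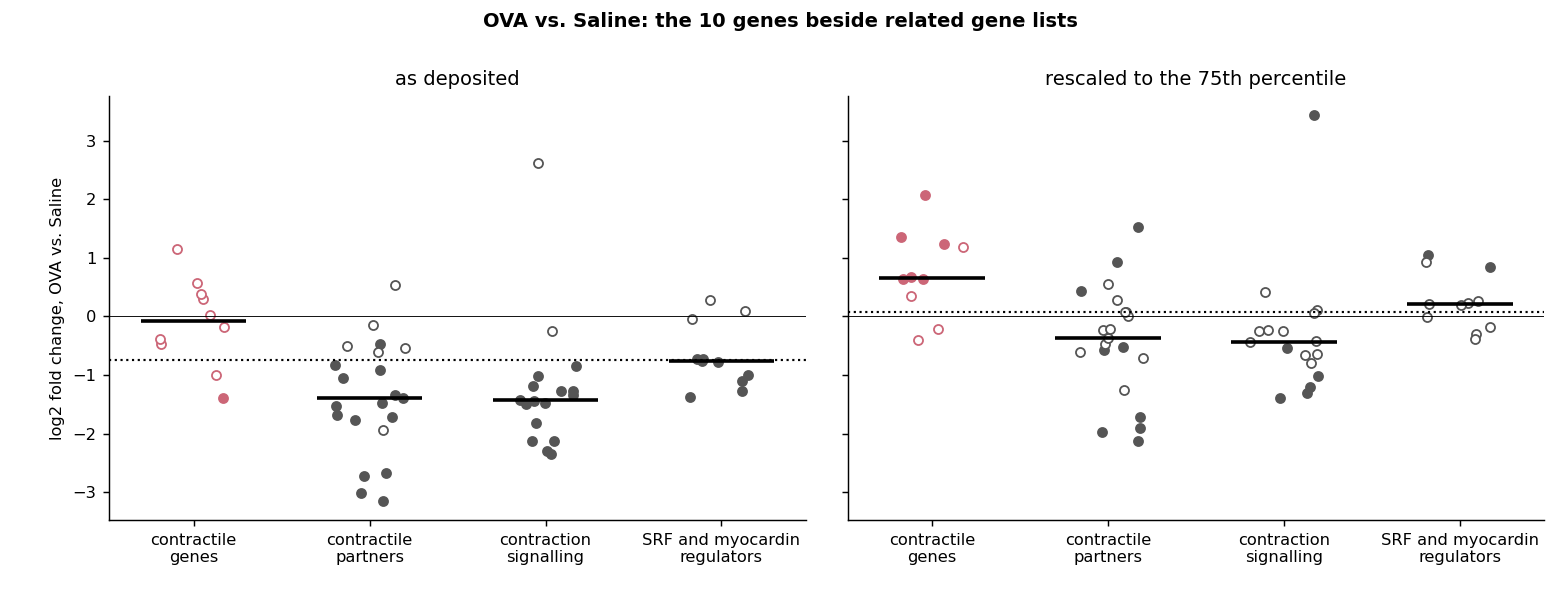
Log2 fold change in OVA vs. Saline of the 10 contractile genes and of 3 related gene lists, as deposited (left) and after rescaling to the 75th percentile (right). Each point is a gene, filled where the adjusted p is under 0.05, thick bars are list medians and the dotted line is the median of all genes. The median of the contractile genes is -0.082 as deposited and 0.65 rescaled, and those of the contractile partners are -1.40 and -0.36.

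Markers of the cells that surround or resemble smooth muscle were counted in OVA vs. Saline, where 57.9% of all genes were lower as deposited and 17.3% lower and 23.8% higher after rescaling. Of the 9 pericyte markers tested 8 were lower as deposited, and after rescaling 3 were lower and 2, Higd1b and Cspg4, were higher. Pdgfrb, the pericyte growth factor receptor, averaged 17.1 FPKM in Saline and 5.89 in OVA and was at -0.35 ± 0.21 after rescaling (limma, adjusted p = 0.218), while Rgs5, another pericyte gene, averaged 2.79 and 0.235 FPKM and was at -1.17 ± 0.25 rescaled (adjusted p = 0.00599). Of the 9 fibroblast markers 7 were lower as deposited, and after rescaling 5 were lower and 2 higher. Inmt, a methyltransferase of lung fibroblasts, was at -2.89 ± 0.72 on the rescaled values (adjusted p = 0.0125), and the 2 that were higher were the collagen genes Col3a1 (2.03 ± 0.41, adjusted p = 0.00506) and Col1a1 (1.48 ± 0.35, adjusted p = 0.0101). The collagen gene Col1a2 was among the 5 that were lower (-2.615 ± 0.780, adjusted p = 0.0260). It was listed at 0 in every OVA library, which can be a failed estimate. Of the 10 endothelial markers 7 were lower as deposited, and after rescaling 4 were lower and 0 higher. Of the 8 leukocyte markers 6 were lower as deposited, and after rescaling 2 were lower, Lyz2 (-1.95 ± 0.49, adjusted p = 0.0134) and Siglecf, and 1 was higher, the integrin gene Itgax (1.95 ± 0.41, adjusted p = 0.00634). The summed rescaled level of the members was 29.2 to 41.8 in Saline and 63.5 to 79.9 in OVA, that of the pericyte list 64.7 to 73.4 and 36.0 to 59.5, and that of the fibroblast list 525 to 590 and 158 to 278. As deposited, the fibroblast sum was 720 to 823 FPKM in Saline and 99.1 to 191 in OVA. Inmt alone averaged 487 and 40.1 FPKM, so the lower fibroblast sum rests largely on this 1 gene. Whether the cells of these lists had a part in the values of the members was not tested.

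The genes most like the members were sought over the 10 libraries by Pearson's r with the mean standardized level of the members after rescaling, among 3950 genes with a mean of 5 FPKM or more. Among the members, Tagln (r = 0.97), Actg2 (r = 0.957), Acta2 (r = 0.95) and Synpo2 (r = 0.929) followed their own mean most closely, and Des (r = 0.35) and Myl9 (r = 0.192) least. Each member is part of that mean, which raises its r, so these values cannot be set beside those of other genes. The 10 most similar other genes were Anp32b (r = 0.907), Tardbp, Arrdc4, Cdc37, Ahcyl2, the collagen gene Col3a1 (r = 0.862), Serpina3n, the muscle tropomyosin gene Tpm2 (r = 0.850), Axl and Hexim1. For Col3a1 the FPKM were 42.6, 12.7 and 15.2 in Saline, 37.3, 43.9 and 36.7 in OVA, and 64.1, 56.3, 55.02 and 100.5 in Herb. These values describe the libraries, which also differ by group and in the share of fragments from named protein-coding rows.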

How the data were processed

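Lung RNA of 10 mice was sequenced as read pairs of 76 bases. The authors trimmed the reads with cutadapt 1.10, aligned them to mm10 with HISAT2, assembled and quantified transcripts with StringTie 1.3.3b, and used edgeR 3.16.5 for their own comparisons, per the submitters' processing notes. The study's methods name ballgown for the FPKM. Then the authors deposited 1 table of FPKM with 66548 transcript rows, of which 34943 carry a symbol, for 24394 symbols. Groups were taken from the sample labels. FPKM share out the fragments of a library, so a class of RNA that takes more fragments lowers all other values. FPKM are not counts, so no count model was used.

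FPKM were summed per symbol. The 11205 sums and 30194 rows whose mean FPKM reached 1 were fitted on log2(FPKM + 1) with limma 3.58.1 in R 4.3.3 (lmFit, eBayes with trend, 3 group means, all 10 libraries), with Benjamini-Hochberg adjustment over all features. A call is an adjusted p under 0.05. Fold changes on this scale understate the change of low genes. On simulated data the procedure was tested first. The rescaling divides each library by the 75th percentile of its rows that have a symbol and a mean of at least 1 FPKM. It then multiplies by the mean of these percentiles. Depth was estimated from values under 0.1 FPKM and GENCODE vM21 transcript lengths, and covers counting error only. Ratios and library measures were compared by two-sided exact permutation tests. Other steps used Python 3.11.15 with pandas 2.3.3, scipy 1.17.1 and matplotlib 3.10.9.

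The members and all gene lists were chosen with earlier results of these data known. Named beside the members are, per related list and comparison, up to 3 called genes of largest change and up to 2 of highest mean FPKM, up to 3 markers per other cell type, and the 10 genes most like the members. One gene that this rule names is not reported here. Smtnl2, Flna, Ednra, Rgs5, Higd1b, Cspg4, Col1a1, Col1a2, Siglecf, Itgax, Mylk, Myocd, Srf levels and Acta1 with Ckm, Myl7, Sftpc and Scgb1a1 were added after their values were seen. The sources name different library kits, and it is not clear whether strand was kept, so reads of Tagln, Des, Lmod1 and Smtn and of opposite-strand genes that overlap them, and of Synpo2 and models inside it, cannot be told apart. Alternatives were other scalings, pseudocounts of 0.1 and 0.5, filters, 2 groups only, other eBayes settings, a replicate block and each library left out.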

Additional observations from a re-analysis of the deposited data

How the results depend on the processing

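The scaling decided most calls of the contractile genes. Correlations of same-numbered libraries of different groups ran from -0.00869 to 0.0953, and those of differently numbered libraries from -0.17 to 0.227. These values show no pairing of the mice by number, but they cannot exclude a shared block. In OVA vs. Saline 1 member was called as deposited, 6 after rescaling to the 75th percentile or to the FPKM sum of protein-coding rows, and 5 after quantile normalization. In Herb vs. OVA 3 were called as deposited and 0 under the 3 scalings, and in Herb vs. Saline 1 as deposited, 4 and 6 under the first 2 scalings, 0 with no filter and 2 without the trend. Member rows called in OVA vs. Saline were 3, 6 and 3 under the 3 scalings and 2 with no filter, in Herb vs. OVA 0 under the scalings, 1 with no filter and 1 with the replicate block, and in Herb vs. Saline 3, 4 and 1 under the scalings and 1 with a mean of at least 5 FPKM. Genes called were 4004 in OVA vs. Saline after quantile normalization and 3180 with a mean of at least 5 FPKM. They were 91, 593 and 157 in Herb vs. OVA under the 3 scalings and 2722 with that filter, and 1774 and 841 in Herb vs. Saline under the first and last scaling and 1716 with that filter. Fewer genes are tested under the stricter filter, and the other causes were not tested. The replicate block gave 1342 genes and 0 members in Herb vs. Saline, and after rescaling 5 genes in Herb vs. OVA and 593 genes and 0 members in Herb vs. Saline.

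Signs turned under the 3 scalings (75th percentile, protein-coding sum, quantile, in this order) as follows. In OVA vs. Saline these were Cnn1 0.36, 0.65 and 0.19, Tagln 0.64, 0.99 and 0.72, Synpo2 0.63, 0.93 and 0.45, and Des 0.077 for the second. In Herb vs. OVA they were Acta2 -0.21, -0.40 and -0.49, Myh11 -0.32, -0.49 and -0.45, Cnn1 -0.059, -0.21 and -0.034, Actg2 -0.31, -0.47 and -0.29, Lmod1 -0.062, -0.20 and -0.057, Synpo2 -0.097, -0.25 and -0.066, and Tagln -0.044 for the second. In Herb vs. Saline they were Cnn1 0.30, 0.44 and 0.16, and Myl9 0.0064, 0.18 and 0.039.

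With each library left out, genes called ranged from 6143 to 6862, 3225 to 5069 and 897 to 3224 in OVA vs. Saline, Herb vs. OVA and Herb vs. Saline, and after rescaling (added after seeing the data, like the block on that scale) from 3486 to 4466, 26 to 896 and 120 to 2103. Members called ranged from 1 to 3, 1 to 4 and 0 to 1, and after rescaling from 3 to 6, 0 to 0 and 0 to 4, and member rows from 1 to 1, 0 to 3 and 0 to 0. Values whose sign turned were Myh11 in Herb vs. OVA (-0.021 to 0.78), Cnn1 (-0.36 to 0.22), Des (-0.075 to 0.45) and Smtn (-0.28 to 0.91) in Herb vs. Saline, Lmod1 in OVA vs. Saline (-0.036 to 0.067), NM_001161775 in Herb vs. OVA (-0.56 to 0.63) and NM_013607 in OVA vs. Saline (-0.55 to 0.79), none of them called.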
